A study of Homo sapiens with 8 samples.

Results

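The PNMA genes, named for the paraneoplastic Ma antigens, were followed across 4 treatments in HL-60, a leukaemia cell line of human promyelocytes. The 7 members are the rows of the deposited table named PNMA1, PNMA2, PNMA3, PNMA5, PNMA6A, PNMA6E and PNMA8A, which makes 7 of 60240 genes. They were chosen from results of these same libraries, so that their differences between treatments are given as a description with a standard error (SE). No p-value is given for them, and a count of members past the threshold of the fit over all genes is printed beside the share of all genes without being read as a test. Wild-type HL-60 cells received the solvent DMSO, decitabine (100 nM, given daily on days 0, 1 and 2), a single dose of RG3039 (2 µM on day 0), or both drugs on these schedules, called the combination below. RNA was taken at 72 h, and 2 libraries were made for each of the 4 groups by sequencing of transcript 3′ ends. Decitabine is a cytidine analogue that is built into DNA and traps DNA methyltransferases, and RG3039 inhibits DcpS, which clears the cap structures left over from mRNA decay.

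PNMA genes descend from the gag gene of a retrotransposon of the Ty3/gypsy type, which mammals took over as a host gene and then duplicated. Their products keep a capsid-like fold, and several are made mainly in brain and testis. PNMA1 and PNMA2 (Ma1 and Ma2) became known as targets of autoantibodies in patients whose tumours express these neuronal proteins, and many genes restricted to germ cells or brain carry DNA methylation at their promoters in other tissues.

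A value here is a normalised read count per gene, comparable between libraries. Levels are not compared between genes, because a 3′ tag count depends on the transcript ends that the reads reach. The estimated depth was 20700000 to 40900000 reads per library, and 1 read was worth a value of 0.702 to 1.51, so that values under about 10 rest on a handful of reads. All 14 promyelocyte markers had a mean of at least 10, with MPO between 69218 and 165580. Of 12 neuronal markers, 3 were at 0 in every library and 3 reached a mean of 10. Differences are on the scale log2(value + 1), from limma (a linear model with variances shared over genes) fitted to the 17534 genes with a mean of at least 10, and a gene counts as called with an adjusted p under 0.05. The labels describe duplicate wells, so the SE measures the spread between these libraries and may be partly technical. In such bulk samples fewer expressing cells and less RNA per cell cannot be told apart.

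Of the members, 6 were above 0 in at least 1 library and 5 reached the mean of 10, PNMA1, PNMA5, PNMA6A, PNMA6E and PNMA8A. PNMA6E did so only through the groups given decitabine. PNMA3 stayed below the limit, and PNMA2 was listed at 0 in all 8 libraries. In GENCODE 29 (GRCh38), PNMA3, PNMA5, PNMA6A and PNMA6E lie near each other on the X chromosome. PNMA5 (ENSG00000198883.12) spans chrX:152988824-152994127 on the minus strand, and PNMA6E (ENSG00000214897.5) spans chrX:153395640-153401420, also minus. PNMA3 (ENSG00000183837.9) and PNMA6A (ENSG00000235961.6) are on the plus strand, at chrX:153056409-153060467 and chrX:153072482-153075018. The annotated start of PNMA5 is 62.28 kb from that of PNMA3, 78.36 kb from that of PNMA6A and 407.3 kb from that of PNMA6E. PNMA1 (ENSG00000176903.5) is at chr14:73711783-73714372 and PNMA8A (ENSG00000182013.18) at chr19:46466491-46471563, both on the minus strand.

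Promoter windows of the 4 X-linked members are printed because decitabine acts on DNA methylation, which sits on the cytosine of CpG dinucleotides, and because these neighbours had different values after treatment. Each window runs from 250 bases before to 50 bases after a RefSeq start on GRCh38.p14, 5′ to 3′ along the gene's strand, with every CpG in capitals. PNMA5 has a second annotated start farther downstream, and its window is shown for contrast. The windows are chrX:152994067-152994366 and chrX:152992168-152992467 (PNMA5, minus strand), chrX:153401301-153401600 (PNMA6E, minus), chrX:153072204-153072503 (PNMA6A, plus) and chrX:153056220-153056519 (PNMA3, plus).
PNMA5 upstream start: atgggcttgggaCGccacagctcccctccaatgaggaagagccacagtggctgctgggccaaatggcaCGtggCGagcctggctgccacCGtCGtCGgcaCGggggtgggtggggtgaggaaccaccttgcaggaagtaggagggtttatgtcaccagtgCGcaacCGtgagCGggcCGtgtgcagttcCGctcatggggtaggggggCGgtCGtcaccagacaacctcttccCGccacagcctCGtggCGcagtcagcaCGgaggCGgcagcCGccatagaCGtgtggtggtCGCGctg
PNMA5 downstream start: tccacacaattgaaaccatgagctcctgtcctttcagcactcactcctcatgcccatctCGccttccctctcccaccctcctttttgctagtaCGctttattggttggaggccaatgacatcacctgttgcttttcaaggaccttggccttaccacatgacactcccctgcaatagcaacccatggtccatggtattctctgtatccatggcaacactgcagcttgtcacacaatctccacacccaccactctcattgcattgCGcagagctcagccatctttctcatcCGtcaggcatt
PNMA6E upstream start: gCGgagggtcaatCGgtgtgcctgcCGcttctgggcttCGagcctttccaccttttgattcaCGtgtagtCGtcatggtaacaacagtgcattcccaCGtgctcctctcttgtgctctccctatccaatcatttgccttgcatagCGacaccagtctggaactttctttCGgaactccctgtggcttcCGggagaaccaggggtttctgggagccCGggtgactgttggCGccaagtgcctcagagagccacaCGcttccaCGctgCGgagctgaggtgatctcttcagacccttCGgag
PNMA6A: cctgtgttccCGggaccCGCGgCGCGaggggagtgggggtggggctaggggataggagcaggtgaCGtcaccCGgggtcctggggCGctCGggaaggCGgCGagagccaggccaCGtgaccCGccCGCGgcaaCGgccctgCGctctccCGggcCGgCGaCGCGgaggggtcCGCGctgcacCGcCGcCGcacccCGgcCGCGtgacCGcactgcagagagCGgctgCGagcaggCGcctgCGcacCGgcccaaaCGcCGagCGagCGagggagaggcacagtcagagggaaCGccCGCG
PNMA3: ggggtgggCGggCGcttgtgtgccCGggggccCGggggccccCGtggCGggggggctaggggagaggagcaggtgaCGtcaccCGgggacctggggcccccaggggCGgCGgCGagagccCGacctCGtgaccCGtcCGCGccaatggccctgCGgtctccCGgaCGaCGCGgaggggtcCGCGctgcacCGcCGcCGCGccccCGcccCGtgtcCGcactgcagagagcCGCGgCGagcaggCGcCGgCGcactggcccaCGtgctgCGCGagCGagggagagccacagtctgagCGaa

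The upstream PNMA5 window holds 23 CpGs, a ratio of observed to expected CpG of 0.71, and 41.16% of the 35116 RefSeq windows have a ratio at least as high. The downstream PNMA5 window holds 4 CpGs (ratio 0.249), and 72.7% of windows are at or above it. PNMA6E has 2 windows of intermediate content, with 16 CpGs (ratio 0.658) at the upstream start and 20 (ratio 0.607) at the other, against a median ratio of 0.579 over all windows. PNMA6A holds 43 CpGs (ratio 0.977), PNMA3 41 (ratio 0.884) and PNMA8A, on chromosome 19, 35 (ratio 0.984). The ratios of PNMA6A and PNMA8A are reached or passed by 10.55% and 9.84% of windows. PNMA5 and PNMA6E, the members with the largest differences after decitabine, thus have less CpG-dense windows than PNMA6A, PNMA3 and PNMA8A, a description of 5 genes without a test. Of the latter, PNMA3 was too low for the fit and stood at 0 and 3.37 after decitabine. PNMA8A was higher in both decitabine libraries than in both DMSO libraries. On the log2 scale, decitabine minus DMSO was 0.73 ± 0.42 (SE) for PNMA8A and -0.98 ± 0.62 for PNMA6A. None of these genes rose after decitabine as far as PNMA5 or PNMA6E. No window of PNMA1 or PNMA2 is used here, and any on chromosome 8, where PNMA2 lies, was left out.

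**Figure D1:**
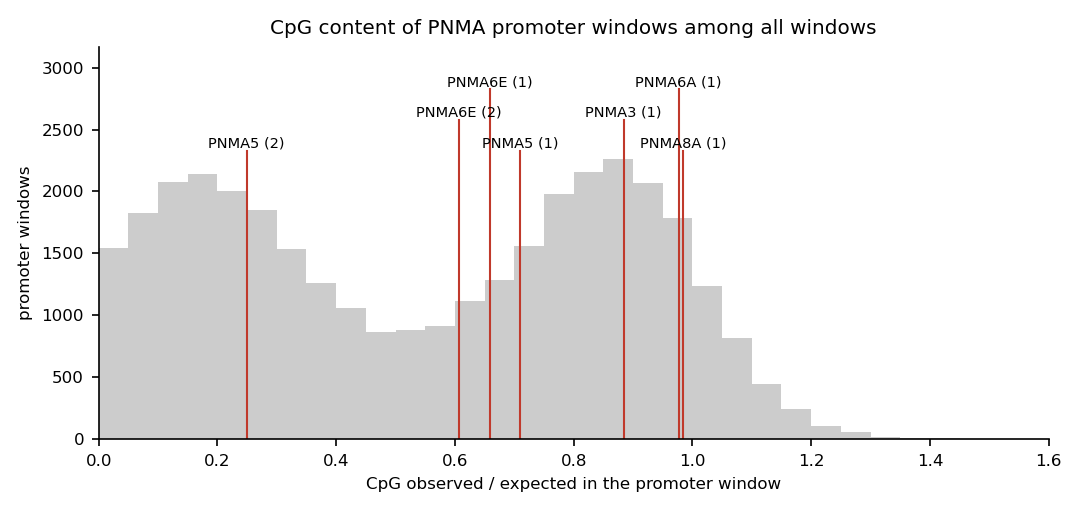
Ratio of observed to expected CpG in promoter windows of 300 bases (x axis) and number of RefSeq windows (y axis, grey bars, 35116 windows). Red lines mark windows of PNMA genes, with the number of the window in brackets. Another downstream PNMA5 window, nearly the same as the one drawn, is left out. The downstream PNMA5 window stands at 0.249, the 2 PNMA6E windows and the upstream PNMA5 window stand between 0.607 and 0.71, and PNMA3, PNMA6A and PNMA8A between 0.884 and 0.984.

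Motifs were searched on both strands by their exact letters, and none of those searched is contained in another. CACGTG, the E-box form bound by several basic helix-loop-helix factors, was present in at least 1 window of all 4 X-linked members. It stands once in the printed windows of PNMA3, PNMA6A and upstream PNMA5, appears in 2 places in the printed PNMA6E window, and is in neither the downstream PNMA5 window nor that of PNMA8A. Of all windows, 7.26% hold it. TGACGTCA, the full cAMP response element, was found in PNMA3 and PNMA6A (1.85% of all windows). GGGCGG, the core of the GC box, was found 3 times in PNMA3, 1 time in each of PNMA6A and upstream PNMA5, and in the second PNMA6E window (45% of all windows). TATAAA was in none of the member windows (11.5% of all windows). The PNMA3 and PNMA6A windows are related to each other along their length, with 76.8% identity in a global alignment, whereas windows of any other pair of these genes had 41.5% to 55.2%. These matches describe letters in the windows only.

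PNMA5, which encodes a gag-like protein known from cortical neurons, had the widest range among the members. Its value was 19.7 and 39.2 in the DMSO libraries (26 reads in each), 7735 and 10197 after decitabine, 33.6 and 26.3 after RG3039, and 3079 and 3511 in the combination. Both groups given decitabine were far above both groups without it, and the ranges did not meet. The DMSO and RG3039 libraries overlapped. The mean after decitabine was 8966 ± 1741 (SD, n = 2), which is 304 times the DMSO mean of 29.5 ± 13.8 (SD, n = 2). The mean in the combination was 3295 ± 306 (SD, n = 2), 112 times that of DMSO and 0.367 times that after decitabine alone. On the log2 scale PNMA5 differed from DMSO by 8.27 ± 0.32 (SE) after decitabine, by 0.09 ± 0.32 after RG3039 and by 6.83 ± 0.32 in the combination. The combination lay 1.43 ± 0.32 below decitabine alone, a difference of -1.43. Only 1 of the 17534 genes had a larger log2 difference between decitabine and DMSO, which puts PNMA5 at rank 2.

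PNMA6E, a member of the PNMA6 branch of the family, had its groups in the same order as PNMA5. It stood at 0 and 3.33 in DMSO, at 177 and 216 after decitabine, at 2.22 and 8.78 after RG3039 and at 94.6 and 77.0 in the combination. Again both groups given decitabine were above both groups without it, and the combination was below decitabine alone in both libraries. The differences from DMSO were 6.56 ± 0.83 after decitabine, 1.43 ± 0.83 after RG3039 and 5.37 ± 0.83 in the combination, and the combination differed from decitabine alone by -1.19 ± 0.83. No ratio to DMSO is given, since the DMSO values correspond to about 2 reads at most, and the log2 difference with decitabine ran from 4.96 with a pseudocount of 5 to 7.62 without the second DMSO library. PNMA6E was at rank 8 of 17534 for that difference. Of 902 stretches of 50 bases (the read length) in the last 500 bases of its transcripts, 25 also occur in PNMA6F (2.772%), so a small share of its reads could belong to that gene, which was at 0 in all libraries.

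**Figure D2:**
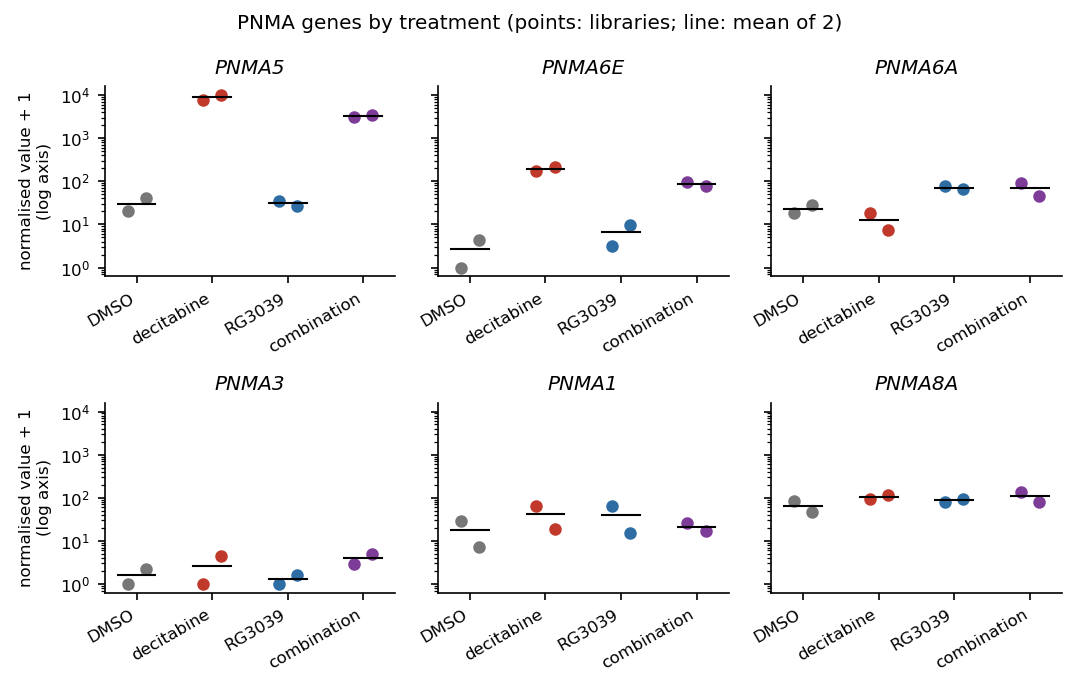
Normalised value + 1 on a log axis (y) for 6 PNMA genes in the 4 treatments (x). Points are single libraries and lines the mean of 2. PNMA5 and PNMA6E lie high in the decitabine and combination groups, PNMA6A lies between 44.9 and 89.9 in the groups given RG3039 and between 6.24 and 27.2 in the others, and PNMA1 and PNMA8A overlap between most groups.

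PNMA6A, on the same stretch of the X chromosome, lay highest in the groups given RG3039. Its value was 17.4 and 27.2 in DMSO (23 and 18 reads), 17.5 and 6.24 after decitabine (13 and 6 reads), 75.2 and 63.7 after RG3039 (56 and 80 reads), and 89.9 and 44.9 in the combination (108 and 64 reads). All 4 libraries with RG3039 were above all 4 without it, while DMSO overlapped with decitabine and RG3039 overlapped with the combination. How many of all genes separate in this way was not counted. At an unadjusted p under 0.05 in limma, 22.8% of all genes differed between RG3039 and DMSO. The mean after RG3039 was 3.12 times that of DMSO, and the combination 5.67 times that of decitabine alone. These 2 comparisons share no library, and limma did not call the first. Their log2 differences were 1.62 ± 0.62 and 2.48 ± 0.62. The latter was 3.16 without the first decitabine library and 1.80 without the second, which holds 6 reads. Decitabine differed from DMSO by -0.98 ± 0.62, and the combination from RG3039 alone by -0.12 ± 0.62. A pseudogene, PNMA6B, carries the same tail sequence as part of PNMA6A, but no stretch of 50 bases in the last 500 of PNMA6A itself was found in another gene, and PNMA6B was at 0.

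PNMA3, which encodes a member with a zinc knuckle, was near the limit of detection. It stood at 0 and 1.22 in DMSO, 0 and 3.37 after decitabine, 0 and 0.645 after RG3039 and 1.93 and 3.98 in the combination. These values correspond to fewer than 6 reads per library, too few to measure a small difference. PNMA3 did not rise after decitabine as far as PNMA6E, which stood at 0 and 3.33 in DMSO and at 177 and 216 after decitabine. The start of PNMA3 lies between those of PNMA5 and PNMA6A.

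PNMA8A (also known as PNMAL1), on chromosome 19, was present in every library. It stood at 81.8 and 45.3 in DMSO, 91.7 and 113 after decitabine, 80.7 and 94.4 after RG3039 and 136 and 77.3 in the combination. The 2 decitabine libraries were above both DMSO libraries, and every other pair of groups overlapped. Such an order arises easily with 2 libraries per group, and how many of all genes have it was not counted. PNMA8A was not called by limma in any comparison. Differences from DMSO were 0.73 ± 0.42 (decitabine), 0.51 ± 0.42 (RG3039) and 0.74 ± 0.42 (combination).

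PNMA1, the Ma1 antigen, differed more within groups than between them. Its value was 28.0 and 6.04 in DMSO, 63.4 and 17.7 after decitabine, 63.2 and 14.3 after RG3039 and 24.97 and 16.1 in the combination. All groups overlapped, and the library numbered 1 was above the library numbered 2 in each of the 4 groups, although the labels do not tie equal numbers together. The lowest value rests on 4 reads. The difference from DMSO was 1.28 ± 0.96 after decitabine, 1.13 ± 0.96 after RG3039 and 0.56 ± 0.96 in the combination, the last of which became -0.46 without the second DMSO library. PNMA2 (ENSG00000240694.9), the Ma2 antigen, lies on the minus strand at chr8:26504686-26514092, antisense to parts of BNIP3L and DPYSL2, and was listed at 0 in every library while BNIP3L stood between 840 and 1424.

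The counts of members called are given beside the share of all tested genes, and nothing is read from them, since the same libraries served to choose the members. Between decitabine and DMSO 2 of the 5 tested members were higher (PNMA5 and PNMA6E) and 0 lower, against 1.74% and 0.405% of all genes. Between RG3039 and DMSO, limma called 0 members either way (1 higher and 0 lower at an unadjusted p under 0.05), with 4.53% of all genes higher and 3.59% lower. At an unadjusted p under 0.05, 22.8% of all genes passed in that comparison in either direction. In the combination against DMSO 2 members were higher (PNMA5 and PNMA6E), with 11.4% of all genes higher and 12.7% lower. The 3 comparisons share the DMSO libraries. Against decitabine alone, the combination had 1 member higher (PNMA6A) and 1 lower (PNMA5), where 3.94% of all genes were higher and 3.39% lower. Against RG3039 alone, it had 2 higher (PNMA5 and PNMA6E) and 0 lower, with 1.49% and 0.787% of all genes. Decitabine against RG3039 had 2 higher (PNMA5 and PNMA6E) and 1 lower (PNMA6A), with 2.67% and 1.92% of all genes.

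**Figure D3:**
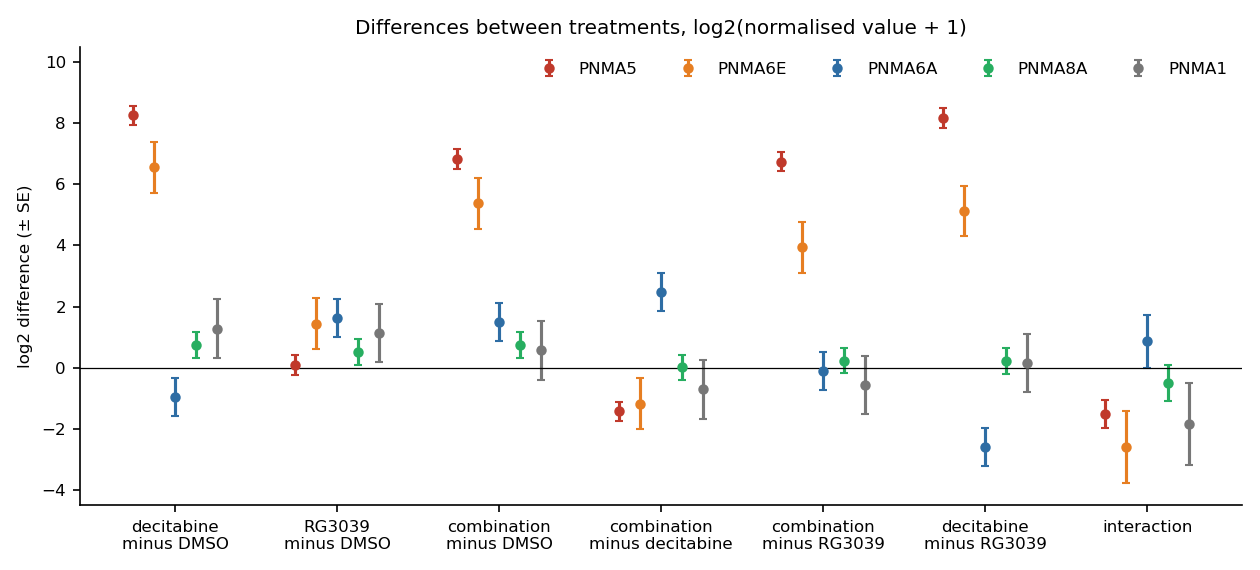
Log2 difference ± SE (y axis) of the 5 members with a mean of at least 10 in each comparison (x axis), from a fit over all 8 libraries. PNMA5 and PNMA6E are between 3.94 and 8.27 wherever a group with decitabine is set against one without, and PNMA6A is at 1.62 for RG3039 against DMSO and 2.48 for the combination against decitabine.

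The size of the differences moved with single libraries. Over 18 alternative settings the log2 difference of PNMA5 ran from 7.79 (without the first DMSO library) to 8.75 (without the second) for decitabine against DMSO, and from 6.35 to 7.31 for the combination against DMSO, with the same libraries at the ends. For the combination against decitabine alone it ran from -1.63 to -1.23, between the settings without the first and without the second decitabine library. PNMA6E ran from 3.81 to 6.43 for the combination against DMSO and from 3.14 to 4.75 for the combination against RG3039. PNMA6A, which the setting with a mean of at least 50 does not include, ran from -3.28 to -1.92 over 17 settings for decitabine against RG3039.

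Each drug was thus seen without and with the other in comparisons that share no library. Adding decitabine to DMSO moved PNMA5 by 8.27 ± 0.32, and adding it to RG3039 by 6.74 ± 0.32. For PNMA6E the values were 6.56 ± 0.83 and 3.94 ± 0.83. Adding RG3039 to DMSO moved PNMA5 by 0.09 ± 0.32, whereas adding it to decitabine gave -1.43 ± 0.32, and PNMA6E had 1.43 ± 0.83 and -1.19 ± 0.83. The gap between the 2 effects of a drug is the interaction, (combination minus decitabine) minus (RG3039 minus DMSO). It was -1.52 ± 0.45 for PNMA5, -2.62 ± 1.18 for PNMA6E, 0.86 ± 0.88 for PNMA6A, -0.50 ± 0.59 for PNMA8A and -1.85 ± 1.35 for PNMA1. For the interaction limma called 0% of all genes higher and 0% lower, no member among them, with 1014 genes (5.78%) and 1 of the 5 members at an unadjusted p under 0.05.

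**Figure D4:**
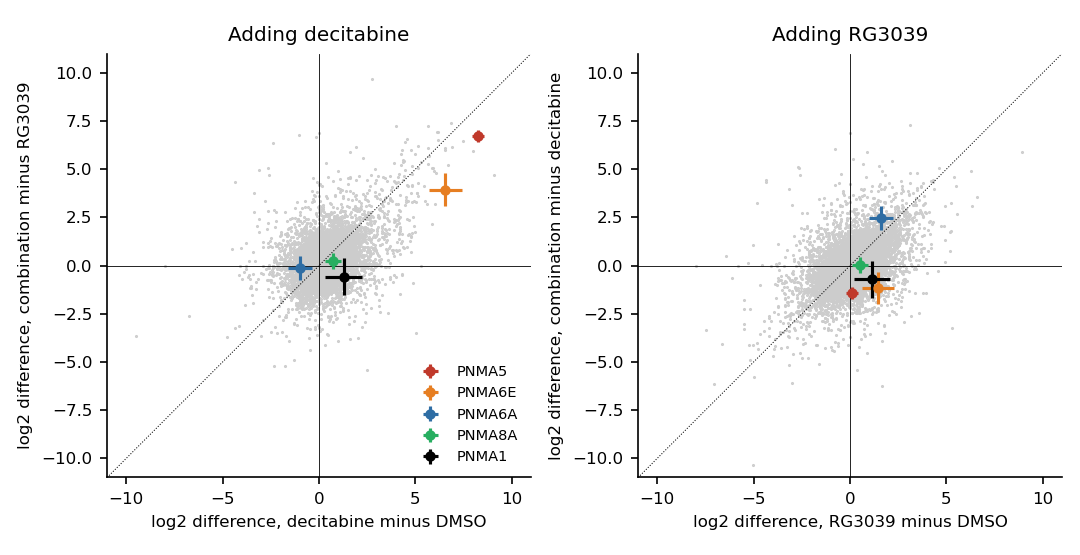
Log2 difference made by decitabine (left) and by RG3039 (right), added to DMSO (x axis) and added to the other drug (y axis). Grey points are the 17534 tested genes, coloured points are PNMA genes with bars of ± SE, and the dotted line marks equal differences. PNMA5 (8.27 and 6.74) and PNMA6E (6.56 and 3.94) lie below the line at the far right of the left panel, and PNMA6A (1.62 and 2.48) lies above 0 on both axes of the right panel.

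Marker genes of other cell types were read in the same libraries. The summed value of 20 lymphoid, stromal and epithelial markers, of which 5 were at 0 throughout, was 671 to 736 in DMSO, 814 to 1092 after decitabine, 1722 to 2012 after RG3039 and 3417 to 3962 in the combination. Most of that sum is PECAM1, an adhesion molecule of endothelium that leukocytes also carry, at 582 to 608 in DMSO, 565 to 821 after decitabine, 1633 to 1875 after RG3039 and 3085 to 3460 in the combination. Without PECAM1, left out after its values were seen, the other 19 summed to 88.6 to 128 in DMSO, 89.1 to 138 after RG3039, 250 to 270 after decitabine and 332 to 502 in the combination. The rest of the list was thus higher in the groups given decitabine, where PNMA5 and PNMA6E were high, and overlapped between DMSO and RG3039.

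The 14 promyelocyte markers summed to 236390 to 279380 in DMSO, 247200 to 291790 after decitabine, 198620 to 208740 after RG3039 and 185840 to 204290 in the combination. The lower sums go with MPO, the myeloperoxidase of primary granules, at 131000 to 165580 in DMSO and 69218 to 92757 in the groups given RG3039. Without MPO the other 13 summed to 105390 to 113800 in DMSO, 125710 to 133720 after decitabine, 115980 to 118450 after RG3039 and 116620 to 129650 in the combination. Of the 14, limma called 2 higher and 0 lower with decitabine, 1 higher and 4 lower with RG3039, and 5 higher and 4 lower with the combination, against DMSO. The median log2 difference was 0.32, 0.12 and -0.33, beside 0.01, -0.00 and 0.04 over all genes. The neuronal markers summed to 89.5 to 279 in DMSO, 193 to 196 after decitabine, 184 to 314 after RG3039 and 153 to 275 in the combination, and these ranges overlap. The part of any of these lists in the values of the members was not tested.

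Of the 8 relatives of the family that are not members, 3 were above 0 and 2 were tested. MOAP1, which binds the apoptosis regulator BAX, stood at 114 and 172 in DMSO, 184 and 190 after decitabine, 155 and 189 after RG3039 and 260 and 196 in the combination. CCDC8, a component of a complex that acts on the cytoskeleton, stood at 9.84 and 3.02 in DMSO, 33.7 and 36.4 after decitabine, 30.9 and 21.5 after RG3039 and 62.4 and 11.9 in the combination. All treated libraries were above both DMSO libraries for CCDC8, and how many of all genes have this order was not counted. Neither gene was called by limma in any of the 7 comparisons (CCDC8 with decitabine 2.45 ± 0.85, adjusted p = 0.171; MOAP1 in the combination 0.68 ± 0.30, adjusted p = 0.131). At an unadjusted p under 0.05, 1 of the 2 was higher after decitabine, 1 after RG3039 and 2 in the combination, where 17.9%, 22.8% and 36.2% of all genes passed in either direction. PNMA8C had 2 reads in a single decitabine library, and ZCCHC12, ZCCHC18, PNMA6F, PNMA8B and PNMA6B were at 0 throughout.

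Among 17 other host genes derived from retroelement gag or related sequences, 9 were tested. With decitabine 1 of the 9 was higher, with RG3039 1 was higher, and with the combination 2 were higher and 2 lower, against DMSO. The gene called in all 3 was RTL8C, a short gag-derived gene of the X chromosome. Its value was 22.7 and 12.1 in DMSO, 86.3 and 88.4 after decitabine, 114 and 74.0 after RG3039, and 161 and 182 in the combination. It rose by 2.33 ± 0.42 with decitabine (limma, adjusted p = 0.0254), by 2.40 ± 0.42 with RG3039 (adjusted p = 0.00869) and by 3.29 ± 0.42 with both (adjusted p = 0.000682). Its near-identical copies RTL8A and RTL8B make the split of reads uncertain. Over 18 alternative settings RTL8C stayed called in 10 with decitabine (adjusted p up to 0.152, lost among others without either decitabine library, either combination library or the second DMSO library), in 16 with RG3039 (lost without the first RG3039 library and with only the groups compared) and in 18 with both. RTL8C rose with either drug, whereas PNMA5 and PNMA6E were high only where decitabine was present, and that difference in pattern was not tested. In the combination ASPRV1, a skin protease, rose by 3.02 ± 0.93 (limma, adjusted p = 0.0422). In the same comparison GIN1, an integrase-derived gene, differed by -1.57 ± 0.34 (adjusted p = 0.00955) and ZCCHC3, a nucleic acid sensor cofactor, by -0.55 ± 0.18 (adjusted p = 0.0495). GIN1 stayed called in 17 of 18 settings (lost without the first combination library), whereas ASPRV1 did in 8 of 17 and ZCCHC3 in 5 of 18, both missing it without either combination or either DMSO library. The median difference of the 9 was 0.07, 0.52 and 0.80 with decitabine, RG3039 and both, beside 0.01, -0.00 and 0.04 over all genes.

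Of 20 other onconeural antigens, the neuronal proteins that patients with paraneoplastic disease make antibodies to, 7 were tested. None was called by limma with decitabine or with RG3039, beside 1.74% and 4.53% of all genes called higher and 0.405% and 3.59% lower. At an unadjusted p under 0.05, 0 and 1 passed, where 17.9% and 22.8% of all genes passed. With the combination 1 was called higher and 0 lower, beside 11.4% and 12.7% of all genes. CDR2L, the main antigen of Yo antibodies, rose in the combination by 1.71 ± 0.51 (adjusted p = 0.0367), from 79.5 and 28.7 in DMSO to 176 and 144. Its value was 83.6 and 41.6 after decitabine and 145 and 158 after RG3039. The call held in 9 of 18 settings, with adjusted p up to 0.207, and was lost without the second DMSO library or any library of RG3039 or the combination. The median of the 7 was 0.30, 0.45 and 0.07 with decitabine, RG3039 and both.

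The genes around the members were examined to see whether the values of PNMA5 and PNMA6E were shared by the neighbourhood. Within 500 kb of the 7 members there were 173 other genes, of which 67 were tested. With decitabine limma called 0 of the 67, beside 1.74% of all genes called higher and 0.405% lower. With RG3039 it also called 0, beside 4.53% and 3.59%. At an unadjusted p under 0.05, 5 were higher and 3 lower with decitabine, where 17.9% of all genes passed. With RG3039 these were 6 and 5, where 22.8% passed. In the combination 4 were higher and 5 lower, beside 11.4% and 12.7% of all genes. Of these 9, 3 and 2 were called without the first and the second DMSO library, and 1 and 0 without the first and the second combination library. On the X chromosome 54 genes lay in the window and 24 were tested, among them CSAG2 and CSAG3 with equal values in every library. With decitabine 0 of the 24 were called, beside 1.74% and 0.405% of all genes. These shares are too low for 0 of 24 to show whether the neighbours rose. Unadjusted, 2 were higher and 0 lower, where 17.9% of all genes passed. The 2 were MAGEA3, a cancer-testis antigen (3.49 ± 1.29, adjusted p = 0.196), and SLC6A8, the creatine transporter (1.41 ± 0.51, adjusted p = 0.190), chosen here after their values were seen. MAGEA3 stood at 0 and 22.6 in DMSO and at 24.3 and 117 after decitabine. MAGEA6, another MAGEA gene of this window, stood at 125 and 0 in DMSO and at 59.3 and 0 after decitabine. How reads were split between these 2 related genes was not tested, so the MAGEA3 difference is uncertain. Between PNMA5 and PNMA6E lie PNMA3 and PNMA6A. PNMA3 was too low for the fit and stood at 0 and 3.37 after decitabine, and PNMA6A was not higher after it. The called neighbour on the X chromosome was CETN2, a centriole protein, which in the combination differed from DMSO by -0.73 ± 0.19 (adjusted p = 0.0230). Off the X chromosome, BNIP3L beside PNMA2 rose in the combination by 0.69 ± 0.15 (adjusted p = 0.0105), and PTGR2, near PNMA1, differed by -1.30 ± 0.33 (adjusted p = 0.0192). ARHGAP35, ZNF410 and CALM3 differed by -0.90 ± 0.23, -0.93 ± 0.28 and 0.49 ± 0.13. All 6 of these calls were lost without either combination library.

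**Figure D5:**
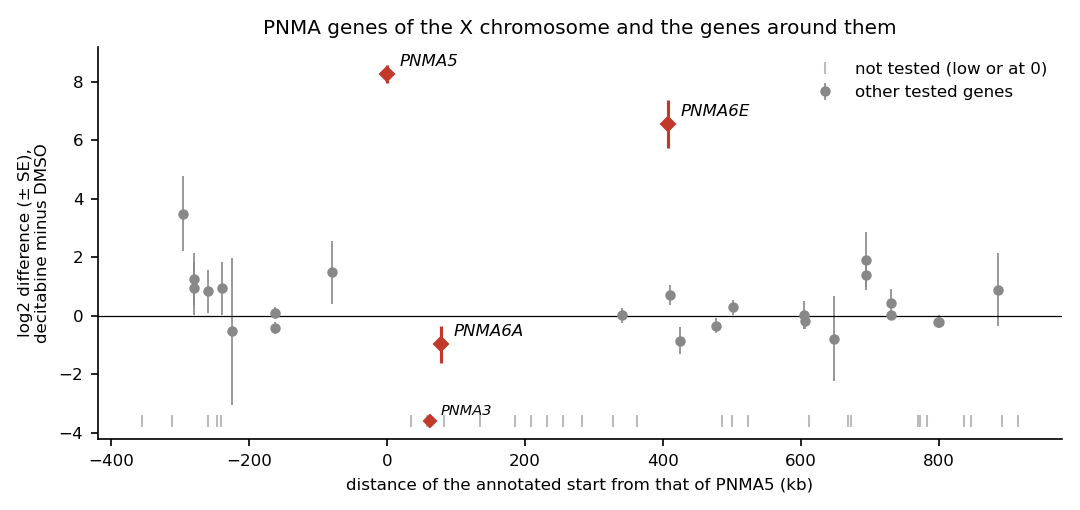
Distance of annotated gene starts from that of PNMA5 (x axis, kb) and log2 difference ± SE between decitabine and DMSO (y axis) for genes within 500 kb of a PNMA gene of the X chromosome. Red diamonds are PNMA genes, grey points the 24 other tested genes, and ticks at the lower edge are genes too low to test, among them PNMA3. PNMA5 (8.27) and PNMA6E (6.56) stand above all 24, of which the highest is MAGEA3 (3.49). The split of reads between MAGEA3 and MAGEA6 was not tested.

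The genes whose values were most like those of a member over the 8 libraries are given as a description. All values were on the log2(value + 1) scale, and the 8 points share their 4 groups, so a gene that separates the same groups has a high r. The closest to PNMA5 were PPP1R27, a phosphatase regulatory subunit (Pearson r = 0.997), PLA2G7, a phospholipase that breaks down platelet-activating factor (0.995), and CTAG1A, a cancer-testis antigen with a near-identical copy (0.995). CTAG1A was listed at 0 in all DMSO and RG3039 libraries, at 56.6 and 66.5 after decitabine and at 20.8 and 40.7 in the combination. PPP1R27 stood at 40.7 and 51.0 in DMSO, 1158 and 1375 after decitabine, 65.7 and 60.2 after RG3039 and 804 and 903 in the combination. Closest to PNMA6E were EPX, the eosinophil peroxidase (r = 0.987), the pseudogene RBBP8P1 (0.974) and IL5RA, the interleukin receptor of eosinophils (0.973). EPX stood at 393 and 666 in DMSO, 2836 and 3742 after decitabine, 656 and 770 after RG3039 and 2108 and 2707 in the combination. PNMA5 and PNMA6E themselves had r = 0.961, whereas PNMA5 and PNMA6A had -0.327.

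For PNMA6A the closest genes were LINGO3 (r = 0.982), LINC00562 (0.980) and UBN2, a subunit of a histone chaperone complex (0.975). UBN2 stood at 2230 and 2551 in DMSO, 2215 and 1709 after decitabine, 3366 and 3119 after RG3039 and 3427 and 3371 in the combination. Its 4 libraries with RG3039 were above the 4 without, an order that choosing genes by r favours, so it adds nothing to the values of PNMA6A. For PNMA8A they were TRPM3 (0.994), KLC4 (0.990) and TBX1 (0.975). For PNMA1 they were MYRF (0.976), ERCC6L (0.962) and COL17A1 (0.959). Their values were higher in the library numbered 1 of each group, which the choice by r likewise favours. COL17A1 stood at 669 and 455 in DMSO, 859 and 610 after decitabine, 857 and 500 after RG3039 and 744 and 555 in the combination.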

How the data were processed

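RNA from 8 HL-60 libraries (4 groups of 2) was measured by QuantSeq 3′ sequencing, single-end 50 bases, per the labels. The authors deposited a normalised signal per gene. The submitters' processing notes name Salmon 1.2.1, STAR, featureCounts, DESeq2, limma and hg38, without saying which step made these values. Whether counting used strand is not stated in these sources. In genes with 1 transcript, 97.5% to 98.1% of low values were whole multiples of 1 read (tolerance 0.02), against 74.4% to 80.8% over all genes, so no count test was run.

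Values were taken as log2(value + 1), with a pseudocount of 1. Genes with a mean of at least 10 were fitted with limma 3.58.1 in R 4.3.3 (1 mean per group, eBayes with trend, 4 residual degrees of freedom and 5.51 prior ones). Tests were two-sided, with p-values adjusted by Benjamini-Hochberg over 17534 genes within each of 7 comparisons and calls under 0.05. The members and lists were chosen with earlier results of these data known. Named are all members and relatives, called genes of each list and of the genes near the members (at most 6), and the 3 genes most correlated with each member. Alternatives were scaling (an unweighted trimmed mean of M-values, and quantile), pseudocount, filter, no trend, robust estimates, only the groups compared, the replicate block and leaving out each library. The fit was tested on simulated data. Of the identifiers, 58064 matched GENCODE 29. Promoter windows are from RefSeq (GRCh38.p14) and were aligned with Biopython 1.88. Windows of 5 of 7 members were used, after any on chromosome 8 had been left out. Protein features were planned and are not used here. Tables and plots used Python 3.11.15, pandas 2.3.3, numpy 2.4.6 and matplotlib 3.10.9.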

Additional observations from a re-analysis of the deposited data

How the results depend on the processing

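Precision is limited by 2 libraries per group and, for PNMA1, PNMA3, PNMA6A and PNMA6E outside the decitabine groups, by few reads. Leaving out a library leaves its group with a lone sample, taken to vary as the remaining groups do.

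Of 611 alternative values of the members' differences, 568 stayed within the spread of the main value, 43 moved beyond it and 0 called values changed sign. Settings that change only the filter, the trend, the block or the estimate of the spread cannot move a difference. Nor can leaving out a library of a group outside the comparison, so these counts do not measure stability. The calls over all genes were 376 for decitabine against DMSO, and 225 without a filter, 210 without the trend and 105 with only the groups compared. For RG3039 against DMSO the 1424 calls became 718 without the trend and 481 with only the groups compared. For the combination against decitabine 1286 became 432 without the trend. For the combination against RG3039 399 became 213 without a filter, 147 without the trend and 688 with the replicate block. For decitabine against RG3039 806 became 427 without the trend and 408 with only the groups compared. Without single libraries the calls were 79 to 503 (decitabine against DMSO), 505 to 1264 (RG3039 against DMSO), 2154 to 4083 (combination against DMSO, 4221 with all), 319 to 1414 (combination against decitabine), 22 to 471 (combination against RG3039), 283 to 895 (decitabine against RG3039) and 0 to 2 (interaction).

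Counts of members called say nothing of stability, since the members were chosen from these libraries. Of the members, the 2 called between the combination and decitabine became 1 without a filter, with a mean of at least 50 and with only the groups compared, and 0 without the trend. The 2 called between the combination and RG3039 became 1 under quantile normalisation, a pseudocount of 0.5, no filter, a mean of at least 50, no trend and only the groups compared. Without single libraries the members called were 1 to 2 for decitabine against DMSO, 0 to 2 for the combination against decitabine, 1 to 2 for the combination against RG3039 and 1 to 2 for decitabine against RG3039 (3 with all). Of the neighbours, 0 with decitabine became 1 under quantile normalisation and 1 without the second DMSO library. The causes were not tested.

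The labels do not tie same-numbered libraries together. Their deviations correlated at -0.077 to 0.161 between groups, over 17534 genes, which cannot exclude a shared batch. The replicate block left 2, 0, 2, 2, 2 and 3 members called in the 6 pairwise comparisons in the order used in the report. Over all genes it gave 525, 1690, 4619, 1678, 688 and 973 calls in that order, each more than without the block.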
